A study of Mus musculus with 24 samples.

Results

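Ctcf, its paralog Ctcfl and 8 genes of the cohesin complex were followed through 24 RNA-seq libraries of mouse embryonic stem (ES) cells and their neural differentiation. The 10 genes (Ctcf, Ctcfl, Rad21, Smc1a, Smc3, Stag1, Stag2, Nipbl, Wapl and Pds5a) were taken by name from a table of read counts for 51697 named genes, and no measured value entered the rule. All 10 passed the filter on low counts in every fit. The cells were the F123 mouse ES line with CTCF-AID, in which CTCF carries an auxin-inducible degron, so that auxin leads to loss of the protein. Every group carried this allele, the untreated ones included. The ES groups were collected at 0, 24, 48 and 96 h of auxin exposure. Cells on the neural path were taken on days 2, 4 and 6, each without auxin (control) and with it, and cells of a further pair of groups were harvested 2 days after auxin was removed on day 4 or on day 6. Each of the 12 groups had 2 libraries. Auxin was supplied as 1 µl of a 500 mM stock for each ml of medium. Auxin-treated cells without the degron were not analysed here, so an effect of auxin and an effect of CTCF loss cannot be told apart. The labels name 1 cell line, do not say whether it is 1 clone, and do not say that the 2 libraries of a group came from separate cultures. The p-values therefore measure the spread between these libraries, which may be technical.

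CTCF is a zinc-finger protein that binds DNA at insulators and at the borders of chromatin domains. Cohesin is a ring of SMC1A, SMC3 and RAD21 with a STAG1 or STAG2 subunit. NIPBL helps to load it, WAPL releases it, and PDS5 proteins bind the ring and take part in both its release and its stabilisation. Cohesin extrudes loops of DNA and is held at CTCF sites, and it also keeps sister chromatids together until cell division. In germ cells some ring subunits are replaced by meiotic forms, and CTCFL (also called BORIS) is known mainly from the male germ line.

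Library totals ran from 24696374 to 72048935 counts. The first replicate of each ES group was shallower than the second. Replicates of ES groups also differed more from each other, with an SD of the log2 ratio between replicates of 0.604 to 0.75 over genes. In 7 of the 8 differentiation groups this SD was 0.124 to 0.168, and in day 2 auxin cells it was 0.331, so day 2 and mean auxin values are also given without 1 of its libraries where that changed a call or moved a called value by over 1.5 times. Summed over 8 pluripotency markers (Pou5f1, Nanog, Sox2 and others), levels fell from 3850 to 4400 CPM in untreated ES cells to 467 to 475 in day 6 controls. The sum of 6 young neuron markers was 203 to 279 CPM in untreated ES cells, 36.7 to 38.1 in day 4 controls and 242 to 260 in day 6 controls. This sum thus rose from day 4 to day 6 but was no higher than in ES cells. With auxin on day 6 the neuron sum was 23.4 to 23.7 and the pluripotency sum 816 to 840. CPM here means the usual depth-scaled count, with library sizes scaled by TMM over all 24 libraries. In such bulk samples, fewer cells of a type and less RNA per cell cannot be told apart.

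Per kilobase of exon, Rad21 was the most abundant of the 10 at a mean of 118 CPM per kb over all libraries. It was followed by Wapl at 57.9, Smc3 at 51.4, Ctcf at 47.4 and Smc1a at 40.9. Nipbl (21.8), Stag1 (17.8), Stag2 (16.2) and Pds5a (13.3) were lower, and Ctcfl stood at 0.985. These lengths join the exons of all annotated transcripts, so a gene with a long minor isoform, such as Pds5a with 19335 exon bases, is placed low. The plot of every library shows that 9 genes were present at 80.5 to 668 CPM throughout, and that the ratio of the highest to the lowest group mean ran from 1.21 for Smc3 to 2.07 for Stag1. For Ctcfl that ratio was 7.26.

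**Figure D1:**
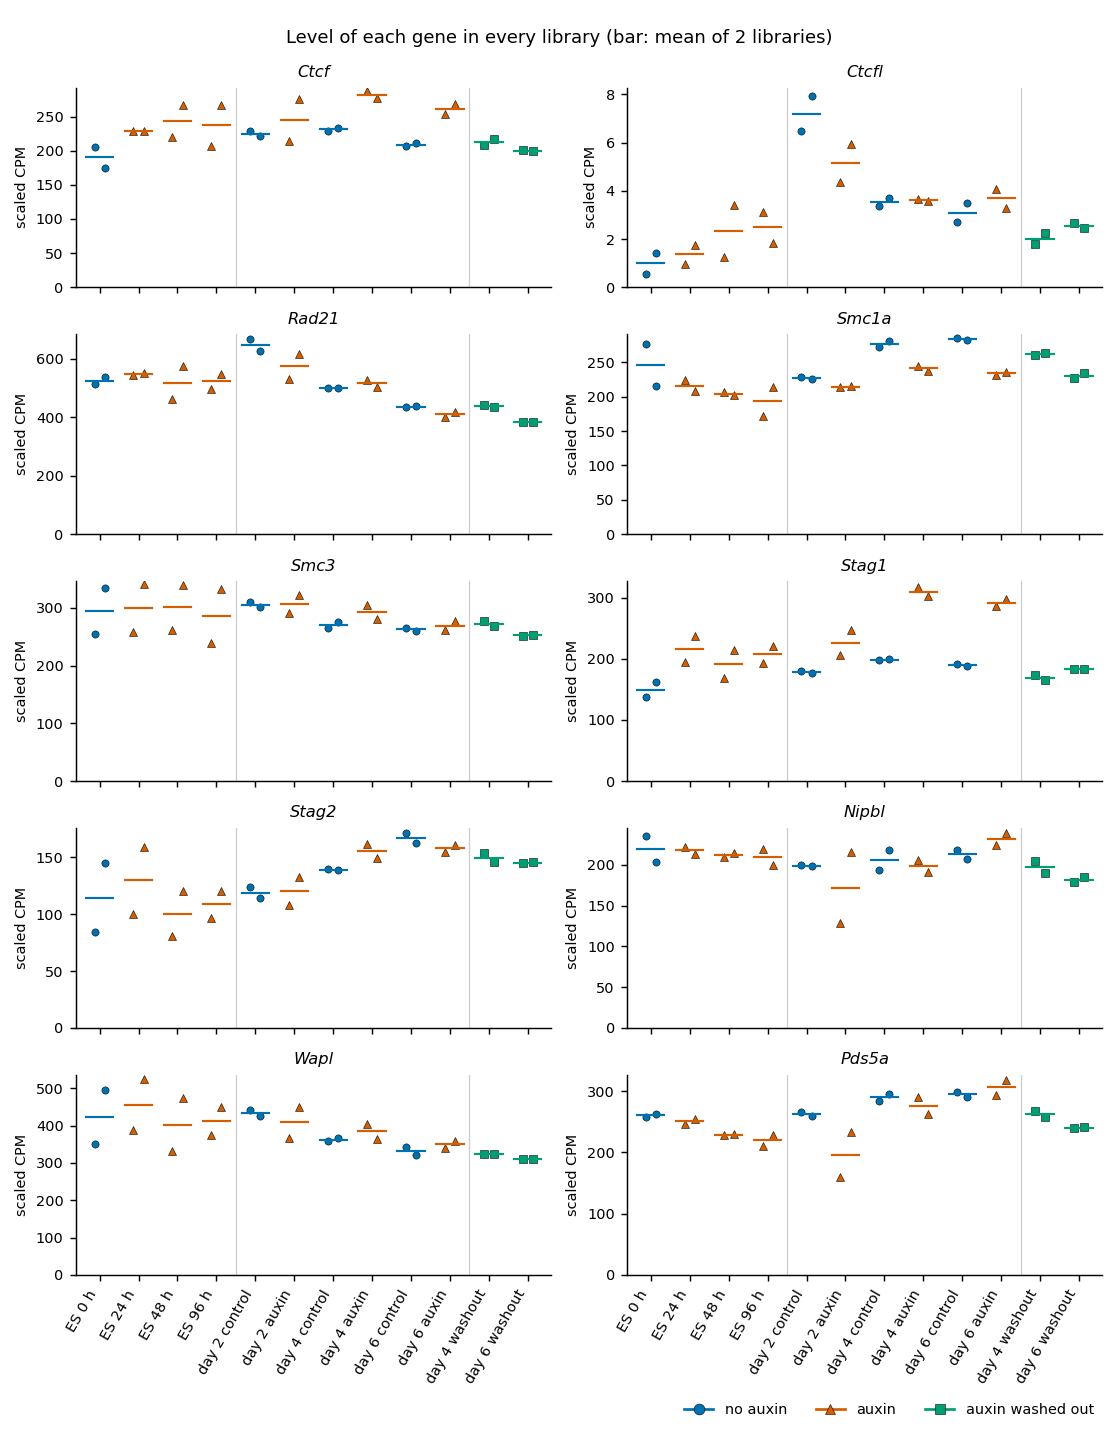
Scaled CPM (vertical axis, starting at 0) of the 10 genes in each of the 24 libraries, by group along the horizontal axis. Points are libraries and bars the means of 2, with circles for no auxin, triangles for auxin and squares for auxin washed out. Stag1 and Ctcf were highest in the auxin groups of days 4 and 6, Smc1a was lower there than in the controls, and Ctcfl was highest on day 2.

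Counted over the 10 genes with edgeR's quasi-likelihood test and an adjusted p below 0.05, none passed after 24, 48 or 96 h of auxin in ES cells, where 0% of 20361 genes passed at each time. At an unadjusted p below 0.05, 548, 1039 and 1767 genes stood out at these times, and 1, 0 and 0 of the 10. With the replicate number as a block 23, 40 and 621 genes passed, by DESeq2 76, 156 and 367, and in a fit of all 24 libraries 307, 710 and 1955. Under auxin in differentiation, 2 of 10 passed on day 2 (18.3% of all 22587 genes), 3 on day 4 (23.5%) and 3 on day 6 (29.2%). The mean effect over the 3 days was called for 3 of 10 (37.6% of genes). On day 2 and in the mean effect, leaving out 1 library moved the number passing both among the 10 and over all genes. Log2 values without 1 day 2 auxin library are given below for single genes. With all libraries, the share of the 10 was near that of all genes. The median log2 fold change of the mean effect was 0.0058 for the 10 against 0.0078 for all genes. In differentiation without auxin, 1, 2 and 2 of 10 differed from untreated ES cells on days 2, 4 and 6 (18.2%, 38.4% and 43.7% of 23831 genes). From day 2 to day 4 of the controls 6 of 10 changed (52.1% of genes), and from day 4 to day 6 2 of 10 did (26.7%). After washout on day 4, 4 of 10 differed from day 6 auxin cells (34.6%) and 1 from day 6 controls (33.9%). Washout on day 6 gave 4 of 10 against day 6 auxin cells (40.3%). No member passed the test that its auxin effect differed between days 2 and 4 (9.9% of genes did) or between days 4 and 6 (4.24%), although at an unadjusted p below 0.05 the counts were 2 and 0.

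Ctcf, the gene of the depleted protein (mm10 chromosome 8, 105636568 to 105682922, plus strand, ENSMUSG00000005698.15), was transcribed in every library. The degron acts on the protein, so this mRNA does not test the depletion. Untreated ES cells had the lowest group mean, with 205 and 175 CPM. After auxin the ES libraries read 229 and 229 at 24 h, 219 and 267 at 48 h and 207 and 267 at 96 h. All 6 auxin-treated ES libraries were thus above both untreated ones. The log2 differences of 0.24 ± 0.22, 0.34 ± 0.22 and 0.29 ± 0.22 (SE, n = 2 per group) did not pass edgeR's quasi-likelihood test (adjusted p = 0.9999, 0.9998 and 0.802). That fit did not pair the replicates, and with the replicate block the adjusted p were 0.935, 0.499 and 0.421.

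In differentiating controls Ctcf stayed between 206 and 234 CPM, with no call from day to day. With auxin it read 287 and 277 CPM on day 4 against 229 and 234 in the controls, and 254 and 268 on day 6 against 206 and 212. On both days the auxin libraries lay above the controls with no overlap. With 2 libraries per group, such separation is frequent, and its share over all genes is not given. It was also seen for uncalled values, as for Rad21 on day 4 (adjusted p = 0.61, edgeR) and Stag2 on day 6 (adjusted p = 0.645). Lack of overlap, here and below, therefore describes the libraries and is not a test. The log2 fold change was 0.29 ± 0.085 on day 4 (Benjamini-Hochberg adjusted p = 0.0179, edgeR) and 0.34 ± 0.085 on day 6 (adjusted p = 0.0054). On day 2 the libraries overlapped, at 214 and 276 CPM with auxin and 229 and 221 without (log2 fold change 0.14 ± 0.085, adjusted p = 0.288). Without the first day 2 auxin library that value was 0.30 (adjusted p = 4.2e-05), and without the second it was -0.062 (adjusted p = 0.377). Over the 3 days the mean effect was 0.26 ± 0.049 (adjusted p = 4.5e-04), and it passed in all 18 alternatives, with a highest adjusted p of 0.049. The day 4 call did not survive omission of any 1 of its 4 libraries, and the day 6 call without the second day 6 auxin library. Both were lost in the fit of 24 libraries, in which the adjusted p reached 0.398 and 0.193.

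After washout Ctcf was at or just below the control values, at 209 and 217 CPM for washout on day 4 and 200.3 and 199.6 for washout on day 6. Against day 6 auxin cells it fell by 0.30 ± 0.085 on the log2 scale (adjusted p = 0.0115, edgeR quasi-likelihood test) and by 0.40 ± 0.085 (adjusted p = 0.0014). These comparisons share the day 6 auxin libraries with each other and with the day 6 auxin effect. The first was lost without the first day 4 washout library or without the second day 6 auxin library, and both were lost in the fit of 24 libraries. Between day 4 washout and day 6 control the difference was 0.042 ± 0.085 (adjusted p = 0.75). The labels place the harvest 2 days after washout and give no harvest day. If that is counted from day 4 and day 6, the first washout group has the age of the day 6 groups and the second is older, so time and washout cannot be told apart there.

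Promoter sequences are shown for Ctcf, Stag1 and Smc1a, the 3 members whose level changed under auxin on days 4 and 6. Each is the 250 bases before the RefSeq transcription start, from 5′ to 3′ on the gene's strand (GRCm38.p6, the mm10 build). Matches to the short pattern CCCTC on either strand (GAGGG where it lies on the other) are in capitals. Of the 10 genes 6 had a RefSeq promoter in the table used, the others being Smc3, Wapl and Pds5a.
Ctcf, chr8:105636288-105636537, plus strand: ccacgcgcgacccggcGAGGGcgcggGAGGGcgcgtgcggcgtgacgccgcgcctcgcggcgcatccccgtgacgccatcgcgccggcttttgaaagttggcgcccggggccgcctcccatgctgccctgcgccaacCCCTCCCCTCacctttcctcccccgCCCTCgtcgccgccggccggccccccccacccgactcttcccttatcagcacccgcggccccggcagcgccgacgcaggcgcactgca
Stag1, chr9:100643198-100643447, plus strand: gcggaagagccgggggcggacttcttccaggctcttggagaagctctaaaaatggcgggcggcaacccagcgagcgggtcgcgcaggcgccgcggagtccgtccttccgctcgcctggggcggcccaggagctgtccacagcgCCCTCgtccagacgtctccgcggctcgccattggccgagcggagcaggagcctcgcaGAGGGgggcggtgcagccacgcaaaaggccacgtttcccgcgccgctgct
Smc1a, chrX:152016178-152016427, plus strand: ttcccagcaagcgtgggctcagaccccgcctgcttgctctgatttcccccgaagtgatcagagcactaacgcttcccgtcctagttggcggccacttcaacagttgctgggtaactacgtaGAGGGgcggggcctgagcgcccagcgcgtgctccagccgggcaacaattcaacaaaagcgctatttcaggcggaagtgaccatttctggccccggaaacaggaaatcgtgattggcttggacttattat
The Ctcf window held 5 matches to CCCTC, that of Stag1 2 and that of Smc1a 1. Of 32851 RefSeq promoter windows of the same length, 60.5% held at least 1, so the match is common. All 3 windows were rich in CpG, with 40, 31 and 16 CpG dinucleotides against a median of 6 over all windows. The RefSeq start used for Stag1 lies inside the gene as GENCODE vM21 draws it, so another start of that gene is not covered.

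Ctcfl (mm10 chromosome 2, 173093609 to 173119525, minus strand, ENSMUSG00000070495.11) encodes a CTCF-like protein with a similar set of zinc fingers, usually silent outside the germ line. It was the least abundant of the 10, at 15 to 532 counts per library. An antisense gene, Ctcflos, overlaps its exons and had 0 to 60 counts, and since the strand setting of the counting is not given, reads of the pair cannot be told apart. Untreated ES cells had 0.561 and 1.42 CPM. Day 2 controls had 6.49 and 7.92 CPM, the highest of any group, followed by day 4 controls at 3.35 and 3.68 and day 6 controls at 2.70 and 3.48. The log2 rise over ES cells was 2.80 ± 0.43 on day 2 (adjusted p = 2.0e-04, edgeR), 1.74 ± 0.42 on day 4 (adjusted p = 0.0033) and 1.54 ± 0.42 on day 6 (adjusted p = 0.0065). The rises on days 2 and 4 passed in all 10 alternatives, and that on day 6 was lost without the first untreated ES library (adjusted p = 0.0673). From day 2 to day 4 Ctcfl fell by 1.04 ± 0.17 (adjusted p = 7.4e-05), a call lost in the fit of 24 libraries (adjusted p = 0.0565).

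With all libraries and the filter on low counts, no auxin effect on Ctcfl passed on any day. The libraries read 4.38 and 5.93 CPM on day 2, 3.67 and 3.58 on day 4, and 4.09 and 3.31 on day 6, overlapping the controls on days 4 and 6 and lying below them on day 2. The day 2 difference of -0.46 ± 0.17 had an adjusted p of 0.0682 (edgeR), which was 0.0334 without the filter and 0.0482 with counts divided by 2. Without the second day 2 auxin library it was -0.71 (adjusted p = 0.0034) and without the first -0.28 (adjusted p = 0.282). After washout on day 4 Ctcfl read 1.78 and 2.25 CPM, below every library of the day 6 groups. It fell by 0.88 ± 0.19 against day 6 auxin cells (adjusted p = 0.0021) and by 0.60 ± 0.19 against day 6 controls (adjusted p = 0.0249). The second value was lost without the first day 4 washout library or the second day 6 control library. Day 6 washout cells had 2.65 and 2.46 CPM, and the fall of 0.55 ± 0.19 (adjusted p = 0.0269) was lost without the first day 6 auxin library or either washout library. In ES cells the auxin libraries reached 3.42 CPM at 48 h and 3.12 at 96 h, but the replicates at these times were far apart (1.27 and 3.42, then 3.12 and 1.85) and no time passed (log2 1.31 ± 0.66 at 96 h, adjusted p = 0.64). All washout calls of Ctcfl were lost in the fit of 24 libraries.

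Paralogs can share reads where their sequences are alike, and how the counting placed such reads was not tested. The longest exact stretch that the coding sequences of Ctcf and Ctcfl share (GENCODE vM21 transcripts) is 12 bases, in capitals below within a window of 90 bases in which 72 bases (80%) are identical.
Ctcf, coding strand: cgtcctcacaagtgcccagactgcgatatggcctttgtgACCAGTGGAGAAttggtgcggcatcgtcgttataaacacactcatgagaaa
Ctcfl, coding strand: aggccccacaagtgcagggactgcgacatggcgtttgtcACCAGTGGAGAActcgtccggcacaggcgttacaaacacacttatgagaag
Stag1 and Stag2, the other pair of members that are paralogs, share at most 23 bases, within a window of 89 bases in which 77.5% are identical.
Stag1, coding strand: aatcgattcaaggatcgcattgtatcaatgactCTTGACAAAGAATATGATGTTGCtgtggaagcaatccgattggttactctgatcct
Stag2, coding strand: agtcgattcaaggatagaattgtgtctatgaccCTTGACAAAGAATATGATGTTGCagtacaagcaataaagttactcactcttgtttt

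Stag1 and Stag2 encode the alternative STAG subunits of cohesin. STAG1 cohesin is known mainly from stable sites shared with CTCF, and STAG2 cohesin also from sites without it. Stag1 (mm10 chromosome 9, 100597798 to 100959375, plus strand, ENSMUSG00000037286.15) had the largest mean auxin effect of the 10. On day 2 it read 206 and 247 CPM with auxin against 180.1 and 177 without. On day 4 the values were 318 and 302 against 197 and 199, and on day 6 they were 287 and 297 against 192 and 188. Auxin libraries were above the controls on all 3 days with no overlap. The log2 fold changes were 0.36 ± 0.071 on day 2 (adjusted p = 0.0019, edgeR), 0.66 ± 0.071 on day 4 (adjusted p = 3.2e-06) and 0.64 ± 0.071 on day 6 (adjusted p = 2.9e-06), with a mean effect of 0.55 ± 0.041 (adjusted p = 1.5e-08). The day 4, day 6 and mean values passed in every alternative run, the fit of 24 libraries included, where the highest adjusted p were 0.0042, 0.0027 and 3.7e-05. The day 2 value was lost in that fit (adjusted p = 0.281) and was 0.47 without the first day 2 auxin library and 0.22 without the second. The increase from day 2 to day 4 of the auxin effect, 0.30 ± 0.10, did not pass (adjusted p = 0.0755). It passed by DESeq2, without a filter on low counts and without either day 2 auxin library.

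Washout returned Stag1 to the control range or below. It read 173 and 166 CPM after washout on day 4, under both day 6 controls, and 183 and 183 after washout on day 6. Against day 6 auxin cells it fell by 0.79 ± 0.071 (adjusted p = 3.8e-07, edgeR) and by 0.69 ± 0.071 (adjusted p = 1.2e-06), and both passed in every alternative. Against day 6 controls the day 4 washout difference of -0.15 ± 0.071 did not pass (adjusted p = 0.114). In ES cells Stag1 read 137 and 162 CPM without auxin. The auxin libraries had 194 and 238 at 24 h, 168 and 215 at 48 h, and 193 and 221 at 96 h, and all 6 lay above both untreated ones. The log2 differences of 0.51 ± 0.21, 0.35 ± 0.21 and 0.46 ± 0.21 did not pass (adjusted p = 0.9999, 0.9998 and 0.595). With the replicate block, which is apt here because same-numbered ES libraries deviated together, the adjusted p were 0.265, 0.313 and 0.0986. The 96 h value passed in the fit of 24 libraries (adjusted p = 0.0275). Day 4 controls were also above untreated ES cells (0.37 ± 0.13, adjusted p = 0.0274), a call lost without the first ES library, without either day 4 control library and without a filter.

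Stag2 (mm10 chromosome X, 42149317 to 42277185, plus strand, ENSMUSG00000025862.14) gave no called auxin effect on any day with all libraries. It read 108 and 133 CPM with auxin on day 2 against 124 and 114 without, 140 and 139 CPM in day 4 controls and 162 and 149 with auxin, then 171 and 163 in day 6 controls and 155 and 161 with auxin. The auxin libraries were higher on day 4 and lower on day 6, and the mean effect was 0.048 ± 0.048 (adjusted p = 0.476). Without the first day 2 auxin library the day 2 difference was 0.16 (adjusted p = 0.0475) and the mean effect 0.091 (adjusted p = 0.0164), and without the second they were -0.13 (adjusted p = 0.117) and -0.01 (adjusted p = 0.892). In the controls Stag2 rose by 0.22 ± 0.083 from day 2 (124 and 114 CPM) to day 4 (adjusted p = 0.0334, edgeR) and by 0.26 ± 0.083 from day 4 to day 6 (adjusted p = 0.0304). The first step was lost without the second day 2 or either day 4 control library and the second step without any 1 of its 4 libraries.

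The ratio of 2 genes within a library does not depend on library scaling. Stag1 over Stag2 was 1.42 ± 0.013 (ratio of counts, SD, n = 2) in day 4 controls and 2.00 ± 0.044 with auxin, and 1.14 ± 0.026 in day 6 controls against 1.85 ± 0.0063 with auxin. On day 2 the log2 ratio was 0.59 ± 0.066 without and 0.91 ± 0.028 with auxin. The auxin libraries were above the controls on each of the 3 days, while the controls declined from day 2 to day 6. The mean log2 difference was 0.50, a 1.42-fold higher ratio (exact permutation test within days over 216 rearrangements, two-sided p = 0.00926, the smallest it allows, and 0.0154 adjusted over 5 ratios). By day, the difference was 0.32, 0.49 and 0.70. After washout on day 4 the ratio was 1.13 ± 0.0071, close to that of day 6 controls, and after washout on day 6 it was 1.26 ± 0.0093. In ES cells it was 1.37 ± 0.35 without auxin and 1.71 ± 0.31, 1.94 ± 0.21 and 1.92 ± 0.12 after 24, 48 and 96 h. The untreated libraries were far apart. By replicate number, the log2 ratio in the first libraries was 0.69 without auxin and 0.95, 1.06 and 1.00 at these times. In the second libraries it was 0.16 without auxin and 0.58, 0.84 and 0.87. The ES ratios were not tested.

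**Figure D2:**
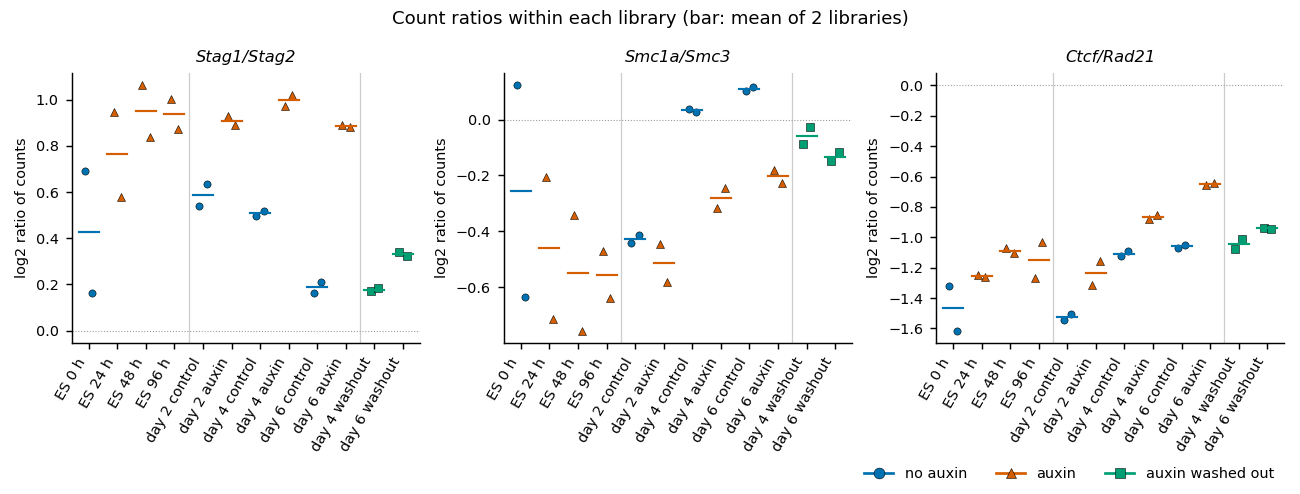
Log2 ratio of counts of 2 genes (vertical axis) in each library, by group along the horizontal axis, with points for libraries and bars for the means of 2. In differentiation the Stag1/Stag2 and Ctcf/Rad21 ratios of auxin libraries lay above the controls on 3 of 3 days and the Smc1a/Smc3 ratio below them on 3 of 3, and the untreated ES libraries were far apart.

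Among the ring subunits, Smc1a moved the other way. Smc1a (mm10 chromosome X, 152016428 to 152062694, plus strand, ENSMUSG00000041133.11) read 245 and 237 CPM with auxin on day 4 against 272 and 281 without, and 231 and 237 on day 6 against 285 and 282. On both days every auxin library was below every control. It fell by 0.19 ± 0.051 on day 4 (adjusted p = 0.0126, edgeR) and by 0.26 ± 0.051 on day 6 (adjusted p = 9.3e-04), with a mean effect over 3 days of -0.17 ± 0.029 (adjusted p = 1.9e-04). On day 2 the values were 214 and 215 against 229 and 226 (log2 fold change -0.068 ± 0.051, not called). The day 4 call was lost without the second day 4 control or second day 4 auxin library and without a filter, and all 3 calls were lost in the fit of 24 libraries. In the controls Smc1a rose by 0.27 ± 0.051 from day 2 to day 4 (adjusted p = 2.3e-04), so that the day 4 and day 6 auxin libraries lay between the day 2 and the later controls. After washout on day 4 it read 261 and 263 CPM, above day 6 auxin cells by 0.16 ± 0.051 (adjusted p = 0.0255), a call that did not survive omission of any 1 of the 4 libraries. In day 6 washout cells it read 228 and 234 CPM, overlapping day 6 auxin cells. In ES cells the 6 auxin libraries read 172 to 224 CPM against 277 and 216 without auxin, and no time passed.

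Smc3 (mm10 chromosome 19, 53600398 to 53645833, plus strand, ENSMUSG00000024974.10), the partner of Smc1a in the ring, varied least of the 10. Its libraries ran from 239 to 341 CPM, and no auxin effect passed (mean effect 0.067 ± 0.036, adjusted p = 0.162), although the mean effect was 0.09 (adjusted p = 0.0103) without the first day 2 auxin library and 0.04 (adjusted p = 0.233) without the second. The log2 ratio of Smc1a to Smc3 was lower with auxin by a mean of -0.24 (exact permutation test, two-sided p = 0.00926, adjusted 0.0154), below the controls on 3 of 3 days. Smc3 fell by 0.19 ± 0.062 from day 2 to day 4 of the controls (adjusted p = 0.0202), a call lost without the first day 2 or either day 4 control library. Rad21 (mm10 chromosome 15, 51962240 to 51991747, minus strand, ENSMUSG00000022314.10), the subunit that closes the ring and is cut at anaphase, was highest in day 2 controls at 668 and 626 CPM. It read 499 and 499 in day 4 controls and 434 and 438 in day 6 controls. These are steps down of 0.38 ± 0.064 (adjusted p = 9.1e-05, edgeR), which passed in all 10 alternatives, and 0.20 ± 0.064 (adjusted p = 0.027), which was lost without any 1 of its 4 libraries. With auxin Rad21 read 532 and 615 on day 2, 528 and 502 on day 4 and 400.3 and 418 on day 6, and no day passed with all libraries. The day 2 difference was -0.16 ± 0.064 (adjusted p = 0.103), and it was -0.27 (adjusted p = 7.6e-05) without the second day 2 auxin library and -0.07 (adjusted p = 0.334) without the first. The mean effect of Rad21, -0.06 ± 0.037 (adjusted p = 0.247), was -0.10 (adjusted p = 0.0023) without the second. The Ctcf to Rad21 ratio was higher with auxin on 3 of 3 days by a mean log2 difference of 0.31 (exact permutation test, two-sided p = 0.00926, adjusted 0.0154).

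Nipbl (mm10 chromosome 15, 8290617 to 8444463, minus strand, ENSMUSG00000022141.7), the loader, held a level of 179 to 239 CPM in 23 of 24 libraries. The exception was the first day 2 auxin library at 129 CPM, against 216 in the second and 199.5 and 198 in the controls. Its day 2 difference was -0.19 with both libraries (not called), -0.62 without the second (adjusted p = 5.7e-08) and 0.12 without the first (adjusted p = 0.194). Its mean effect, -0.03 ± 0.086 (adjusted p = 0.828), was -0.17 (adjusted p = 9.7e-05) without the second. Pds5a (mm10 chromosome 5, 65605721 to 65698273, minus strand, ENSMUSG00000029202.12) showed the same split, at 159.8 and 234 CPM on day 2 with auxin against 266 and 259 without. Both auxin libraries were below the controls, and the fall of 0.40 ± 0.12 passed (adjusted p = 0.0234, edgeR). The difference was -0.17 (adjusted p = 0.0401) without the first auxin library and -0.71 (adjusted p = 1.0e-09) without the second, and it was lost without either day 2 control library. On days 4 and 6 Pds5a was not called with auxin. Its mean effect of -0.13 ± 0.066 (adjusted p = 0.148) passed without the second day 2 auxin library (-0.23, adjusted p = 3.1e-07) and without a filter on low counts. Its paralog Pds5b, not among the 10, gave a Pds5a to Pds5b ratio lower by a mean log2 of -0.23 (exact p = 0.0463, adjusted 0.0579). In day 6 washout cells Pds5a read 240.2 and 241 CPM against 294 and 318 in day 6 auxin cells, lower by -0.36 ± 0.12 (adjusted p = 0.0199), a call lost without the second day 6 auxin or either washout library.

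Wapl (mm10 chromosome 14, 34673928 to 34747983, plus strand, ENSMUSG00000041408.18), which releases cohesin from DNA, followed Rad21 and Smc3. It read 443 and 425 CPM in day 2 controls, 359.5 and 366 on day 4 and 342 and 321 on day 6. The fall from day 2 to day 4 was -0.26 ± 0.081 (adjusted p = 0.0114, edgeR), lost without the first day 2 or either day 4 control library. With auxin no day passed with all libraries. On day 2 Wapl read 367.5 and 451 CPM, and the difference of -0.07 ± 0.080 became -0.23 (adjusted p = 0.0026) without the second auxin library and 0.06 (adjusted p = 0.519) without the first. Its mean effect of 0.04 ± 0.046 was 0.08 (adjusted p = 0.0199) without the first. The ratio of Nipbl to Wapl did not pass (mean log2 -0.08, exact permutation test, two-sided p = 0.38). Beside these falls in the controls, 9 of 12 proliferation genes (Ccnb1, Mcm2 and others) also fell from day 2 to day 4, where 52.1% of all genes were called, with a median log2 of -0.40 against 0.0084 over all genes. Their part in the fall of Rad21, Smc3 and Wapl was not tested.

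**Figure D3:**
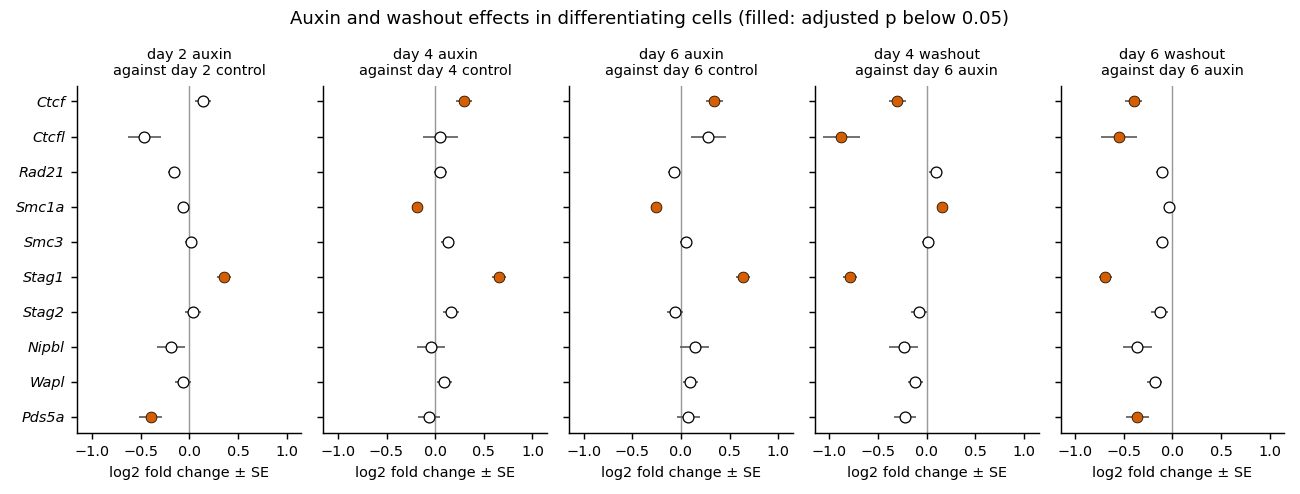
Log2 fold change with its SE (horizontal axis) of the 10 genes in 5 comparisons of differentiating cells, from the edgeR fit of 16 libraries, with filled points for an adjusted p below 0.05. Stag1 lay to the right in all 3 auxin panels and to the left in both washout panels, Ctcf was called on days 4 and 6 and after both washouts, and Smc1a was called to the left on days 4 and 6.

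Over the 12 group means (log2 CPM), Rad21, Smc3 and Wapl ran together, and so did Ctcf and Stag1. Smc1a followed Pds5a (0.73) and Stag2 (0.71) less closely. The highest correlations were 0.91 between Rad21 and Smc3, 0.90 between Ctcf and Stag1, 0.89 between Rad21 and Wapl and 0.88 between Smc3 and Wapl, over 12 groups that share libraries and scaling. Stag2 ran opposite to Wapl at -0.70. Stag1 and Stag2 correlated at 0.39. Among 10701 genes with a clear pattern, those most like Ctcf were Ncoa1, a coactivator of nuclear receptors (r = 0.967), Zfyve9 (0.923), Ccdc136 (0.921), Grk4 (0.913) and Slc26a8 (0.906). None of these was among the 5 most like Ctcf when only the 8 differentiation groups were used. Of the other members Ctcfl varied most, and the genes most like it were Snx32 (r = 0.943), Rnf144b (0.939), Chrna5 (0.938), Zfp264 (0.936) and Ccdc66 (0.933). They too were all absent from the 5 most like Ctcfl in the 8 differentiation groups alone.

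Among the lists of cohesin and related genes, the meiotic cohesin genes were those with most members higher under auxin. All 4, Smc1b, Stag3, Rec8 and Rad21l, rose in the mean effect over 3 days, with a median log2 fold change of 0.62 against 0.0078 over all genes, of which 37.6% were called in either direction. Of the 4, 3 rose on day 4 and all on day 6, while on day 2 the median was -0.14. Stag3, the STAG subunit of meiotic cohesin, read 84.7 and 87.7 CPM with auxin on day 4 against 44.9 and 46.6, and 73.2 and 73.6 on day 6 against 32.4 and 30.6. Smc1b, the meiotic form of Smc1a, read 39.3 and 37.5 against 19.9 and 19.8 on day 4, and 34.4 and 36.2 against 17.8 and 16.1 on day 6. For both genes the auxin libraries lay above both controls on each of these days. The mean effects were 0.67 ± 0.046 for Stag3 (adjusted p = 5.7e-09, edgeR), 0.55 ± 0.046 for Smc1b (adjusted p = 6.2e-08), 0.57 ± 0.053 for Rec8 (adjusted p = 2.2e-07) and 0.95 ± 0.29 for Rad21l (adjusted p = 0.0154). Rad21l was near the limit of detection, at 0.041 to 0.65 CPM over all libraries. On day 2 1 of the 4 was higher, Rec8, at 154 and 123 against 97.8 and 104 CPM (log2 0.47 ± 0.092, adjusted p = 0.0017), and Smc1b was lower (-0.38 ± 0.082, adjusted p = 0.0035). The Rec8 value was 0.29 without the first day 2 auxin library and 0.62 without the second. Stag3 (-0.15 ± 0.080, adjusted p = 0.224) was -0.21 (adjusted p = 0.0385) without the second. In the fit of 24 libraries neither Rec8 nor Smc1b passed on day 2.

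Removing auxin on day 4 lowered 3 of the 4 meiotic genes against day 6 auxin cells, by 0.97 ± 0.081 for Stag3, by 0.96 ± 0.093 for Rec8 and by 0.75 ± 0.080 for Smc1b (adjusted p = 1.5e-07, 8.0e-07 and 2.3e-06, edgeR). Against day 6 controls the same washout cells had less Rec8 (-0.40 ± 0.092, adjusted p = 0.0029) and more Smc1b (0.33 ± 0.081, adjusted p = 0.0045) and Stag3 (0.27 ± 0.081, adjusted p = 0.0181). In day 6 washout cells Rec8 was lower than in day 6 auxin cells by 1.52 ± 0.094 (log2 -1.52, adjusted p = 3.7e-09) and Stag3 by 0.84 ± 0.080 (log2 -0.84, adjusted p = 5.0e-07). Smc1b, at 29.95 and 32.0 CPM, stayed near the auxin level (-0.20 ± 0.078, adjusted p = 0.0499), a call lost in 9 of 10 alternatives. Without the first or the second day 2 auxin library the mean effect still passed for 4 of 4. In the fit of 24 libraries it passed for 2 of 4 (Stag3 and Rec8), with 0 of 4 on day 4 and 1 of 4 (Stag3) on day 6, and Rad21l lost it without the first day 4 control library. Its day 6 call was lost without the first day 6 control or first day 6 auxin library. Markers of germ cells also rose in the mean auxin effect, 7 of 7 (Dazl, Ddx4, Mael, Sycp3, Stra8, Tex101 and Piwil2), with a median log2 of 0.75. The summed level of the 7 was 1220 to 1290 CPM with auxin on day 4 against 721 to 725, and 611 to 616 on day 6 against 334 to 340. None of the 7 was at 0 in any group. On day 2 (18.3% of all genes called), 5 of 7 were higher (median log2 0.27). Of the 4 meiotic genes, 1 was then higher and 1 lower (median -0.14). In day 4 washout against day 6 auxin cells (34.6% of all genes), 1 germ cell marker was higher and 6 lower (median log2 -0.75). Of the meiotic genes, 0 were higher and 3 lower in that comparison (median log2 -0.86). In day 6 washout against day 6 auxin cells (40.3% of all genes), 1 germ cell marker was higher and 3 lower. Of the meiotic genes, 0 were higher and 3 lower there. In the mean effect (37.6% of all genes called), pluripotency markers rose too (6 higher and 1 lower of 8), and young neuron markers fell (6 of 6). The part of either in the change of the meiotic genes, of Stag1, of Ctcf and of Smc1a was not tested. 

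**Figure D4:**
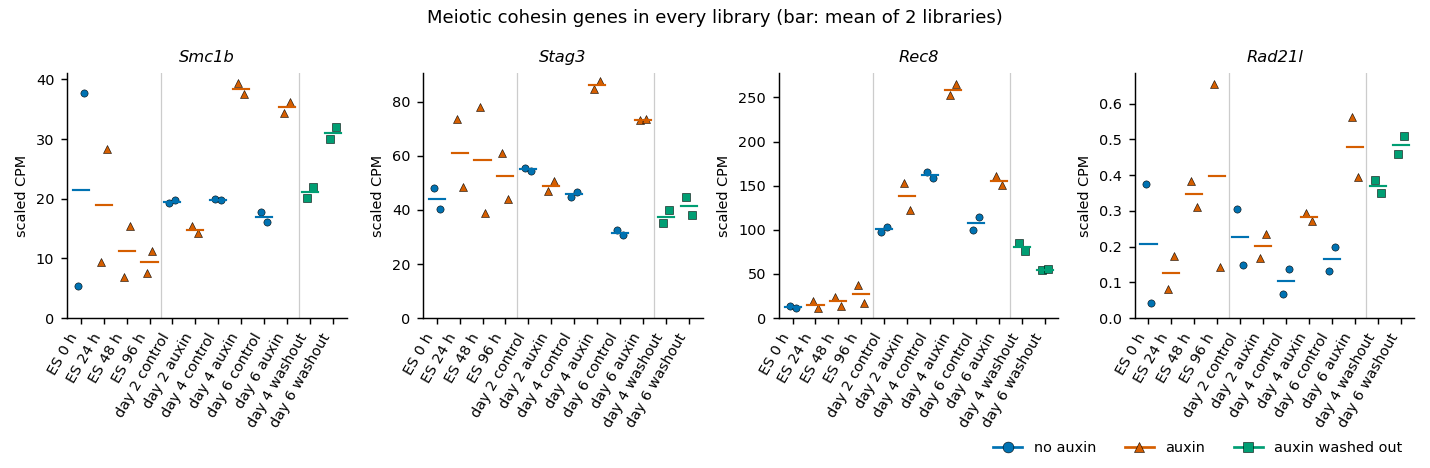
Scaled CPM (vertical axis, starting at 0) of the 4 meiotic cohesin genes in every library, by group along the horizontal axis, with points for libraries and bars for the means of 2. Stag3 and Smc1b were higher with auxin on days 4 and 6 but not on day 2, where Rec8 alone was higher, and Rad21l stayed at or under 0.65 CPM.

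Of 12 loaders, releasers and other regulators, 2 rose and 1 fell in the mean auxin effect, with a median log2 of 0.0019, where 37.6% of all genes were called. The 2 that rose were the acetyltransferases that lock cohesin on DNA, Esco2 (0.34 ± 0.038, adjusted p = 1.6e-06, edgeR) and Esco1 (0.30 ± 0.047, adjusted p = 7.6e-05). Esco2 read 62.4 and 58.7 CPM with auxin on day 4 against 43.7 and 43.2, and 54.3 and 54.5 on day 6 against 38.3 and 38.1, with no overlap on either day. On day 2 its log2 fold change was 0.01 ± 0.065 (adjusted p = 0.94). The mean effect of Esco2 was lost in the fit of 24 libraries (adjusted p = 0.0516), and that of Esco1 passed there. Sgol1, the shugoshin that protects centromeric cohesin, fell by 0.096 ± 0.036 (adjusted p = 0.0482). In the controls 7 of the 12 fell from day 2 to day 4 and none rose, with a median of -0.36, a share near the 52.1% of all genes called in either direction. The largest falls by adjusted p were in Sgol1 (-0.77 ± 0.063), the securin gene Pttg1 (-1.06 ± 0.11), Esco2 (-0.61 ± 0.065) and the separase gene Espl1 (-0.68 ± 0.087), which act in cell division.

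Related SMC complexes changed less evenly. Beside the 37.6% of all genes called in the mean auxin effect, 4 of 8 condensin subunits fell and none rose (median -0.093), among them Ncapg by 0.19 ± 0.035 (adjusted p = 3.9e-04, edgeR). Of 6 genes of the SMC5/6 complex, which acts in DNA repair, 1 rose and 2 fell. Nsmce4a, a subunit of that complex, read 68.0 and 66.9 CPM with auxin on day 4 against 128 and 124. On day 6 it read 57.7 and 57.7 against 107 and 109, and on day 2 70.8 and 52.2 against 123 and 121. Auxin libraries were below the controls on every day, and the mean effect was -0.92 ± 0.054 (adjusted p = 9.6e-10). After washout on day 4 it read 120.4 and 115 CPM, above day 6 auxin cells by 1.02 ± 0.095 (adjusted p = 4.9e-07). In ES cells its 6 auxin libraries, at 37.8 to 70.4 CPM, were all below the untreated 93.2 and 109 (log2 -1.22 ± 0.25 at 24 h, adjusted p = 0.621). Of 10 CTCF cofactors and other architectural zinc-finger genes, 1 rose (Zfp42, also a pluripotency marker, by 0.57 ± 0.036) and 2 fell (Zfp143 by 0.17 ± 0.037 and Ldb1 by 0.15 ± 0.039) in the mean effect. Of 12 proliferation genes 5 fell and 1 rose with auxin (median -0.087).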

How the data were processed

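RNA was sequenced on a HiSeq4000, and the authors deposited 1 table of read counts per gene for 24 libraries (2 in each of 12 groups). The submitters' processing notes name STAR, HTSeq, edgeR and build mm10, while for versions, annotation release and strand setting the sources used here give nothing. Between 59.6% and 78% of counts from 1 to 20 were even numbers. Counts were therefore also divided by 2 as an alternative.

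The 10 genes and all gene lists were chosen with earlier results of these data known. Of 103 listed symbols 102 were found, and Sgo1 was matched as Sgol1. Named from each list were up to 4 genes with the smallest adjusted p in the comparison described, and for likeness the 5 genes with the highest Pearson correlation.

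Genes were filtered (filterByExpr, minimum count 10, total 15), scaled by TMM and tested with edgeR 4.0.16 (quasi-likelihood, R 4.3.3, limma 3.58.1), with Benjamini-Hochberg adjustment over all genes and a threshold of 0.05. The ES libraries (8), the differentiation libraries (16) and, for controls against ES cells, all 24 were fitted separately. Alternatives were RLE scaling, DESeq2 1.42.0, no filter, a replicate block, a fit of 24 libraries and leaving out each library. Steps were tested on simulated data. Same-numbered ES libraries deviated together (correlations of 0.157 to 0.787, above 0.1 in 6 of 6 pairs of groups). The main ES fits nevertheless used no replicate block, so their p-values do not take this pairing into account. Pairing by replicate number entered only through the replicate block among the alternatives.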

Additional observations from a re-analysis of the deposited data

Results flagged for a closer look

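The auxin effect differed between days for 8 genes of the lists of cohesin, related complexes, CTCF cofactors and proliferation. It was tested as an interaction with edgeR's quasi-likelihood test and Benjamini-Hochberg adjustment. Of all genes, 9.9% passed between days 2 and 4 and 4.24% between days 4 and 6. By list, the day 4 minus day 2 calls were 2 of 4 meiotic cohesin genes, 1 of 12 regulators and 1 of 8 condensin subunits. Of 10 CTCF cofactors and other zinc-finger genes 1 was higher and 2 lower, and 1 of 12 proliferation genes was lower. The 5 core cohesin and 6 SMC5/6 genes gave no call. From day 2 to day 4 the auxin effect grew for the meiotic cohesin genes Smc1b, by 1.34 on the log2 scale (adjusted p = 1.43e-06), and Stag3, by 1.07 (adjusted p = 1.28e-05). It also grew for the cohesin acetyltransferase gene Esco2 (0.48, adjusted p = 0.00307), the condensin gene Ncapd3 (0.49, adjusted p = 0.0262) and Zfp42 (0.44, adjusted p = 0.00328). It was lower on day 4 than on day 2 for Ldb1 (-0.39, adjusted p = 0.0178), Patz1 (-0.30, adjusted p = 0.0322) and the cyclin gene Ccne1 (-0.37, adjusted p = 0.0445). From day 4 to day 6 it grew again for Zfp42 (0.35, adjusted p = 0.03). The day 4 minus day 2 values of 7 of the 8 passed without either day 2 auxin library. Ccne1 was -0.19 (adjusted p = 0.0573) without the first and -0.52 (adjusted p = 2.2e-06) without the second, and Ncapd3 was 0.31 and 0.72. Smc1b, Stag3, Esco2 and Zfp42 (day 4 minus day 2) were lost only in the fit of 24 libraries, where the adjusted p were 0.986, 0.494, 0.971 and 0.579. Ncapd3, Ldb1, Patz1 and Ccne1 were also lost without either day 2 control, either day 4 control or the first day 4 auxin library. The second value of Zfp42 was lost when any 1 of its libraries was omitted. Cell type markers differed between days too. From day 2 to day 4 (9.9% of all genes) the effect was higher for 4 of 8 pluripotency and 3 of 7 germ cell markers. It was lower for 5 of 7 neural progenitor and 4 of 6 young neuron markers. From day 4 to day 6 (4.24% of all genes) it was higher for 5 of 8 pluripotency markers and lower for 6 of 6 young neuron markers. The part of these markers in the values above was not tested.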

How the results depend on the processing

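Of 170 comparisons of single members 33 were called, 9 of them in every alternative run, and none of the 33 changed sign. In 24 a call was lost in at least 1 alternative, and 32 uncalled values passed in at least 1. In the fit of 24 libraries the number of members called became 1 for ES cells at 96 h, 1 from day 2 to day 4 of the controls, 0 from day 4 to day 6, 0, 1 and 1 for auxin on days 2, 4 and 6, 1 and 1 for washout on days 4 and 6 against day 6 auxin, and 0 for day 4 washout against day 6 control. Genes called in that fit fell from 11757 to 5746 between control days 2 and 4, and from 6024 to 1218 between days 4 and 6. For auxin on days 2, 4 and 6 they fell from 4126, 5318 and 6588 to 313, 803 and 1564. For washout on days 4 and 6 against day 6 auxin they fell from 7823 and 9097 to 1606 and 2337. For day 4 washout against day 6 control they fell from 7658 to 1635. In ES cells at 96 h they rose from 0 to 1955. The common dispersion was 0.0439 in that fit and 0.0051 in the fit of the 16 differentiation libraries. For controls against ES cells, the main fit called 4328, 9162 and 10425 of all genes on days 2, 4 and 6. A fit of only those groups gave 2 members on day 2 (4592 of all genes) and 4 on day 6 (10563). No filter gave 1 on day 4 (8994 of all genes). On day 6 halved counts gave 5 (10360 of all genes) and DESeq2 4 (11024). For the day 4 minus day 2 auxin effect, no filter gave 2 (2597 of all genes) and DESeq2 1 (2717), where the main fit called 2237 of all genes. With the replicate block, day 6 controls against ES cells gave 5 members (Stag1, Stag2 and Wapl were added) and 10758 of all genes. Of the 3 ratios called in the main test, 0 passed with the block. Each had an adjusted p of 0.0521 in an exact test that flips the signs of the paired differences. All 3 stood at the smallest p this test allows. They could not have passed the adjustment unless a further ratio had also reached that p, so the block does not decide whether they hold. The block moved no other count of members by over 1.5 times. Leaving out 1 library, which leaves 1 in its group, also moved the number of members called. This held for day 4 and day 6 controls against ES cells, both steps between control days, auxin on each day and the mean effect. It also held for both washouts against day 6 auxin, day 4 washout against day 6 control, and the day 4 minus day 2 effect. The number of all genes passing moved in these comparisons too. For members the moves were widest for auxin on day 2 and for the day 4 minus day 2 effect, where the number over all genes also moved widely. The alternatives for meiotic and other list genes were added after seeing the data. Counting error bears most on Ctcfl, with 15 to 532 counts per library.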
